A study of Mus musculus with 3 samples.

Results

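The outer zone of the olfactory nerve layer, away from the glomeruli, was compared with its inner zone in 3 coronal sections. These came from the main olfactory bulb of C57BL/6J mice aged 12 weeks. Every spot that the deposited annotation placed in the olfactory nerve layer was given its distance, in array positions, to the nearest spot of the glomerular layer of the same section. Spots farther than the section's median distance made the outer zone, and spots at or within it the inner zone. No expression value was used to split the annotated layer into these zones. The olfactory nerve layer held 238377 of 2250425 spots under tissue, of which 118942 were outer and 119435 were inner. By section these were 38916, 40907 and 39119 outer spots and 39158, 41068 and 39209 inner spots.

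High-density arrays that capture poly(A) RNA in place were used, on which a spot is a small area of tissue and can hold parts of several cells. The sections were not treated in any way that the labels state, and each section was 1 sample. The labels do not tie sections to animals, so p-values hold for these 3 sections and do not measure the spread between animals. In the main test of genes they rest on how the difference between zones varied over the sections. Most of that spread was estimated from all genes together. The method of drawing the layers, and any part of expression values in it, is not given in the sources at hand.

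The olfactory nerve layer is the outermost layer of the bulb. Axons of olfactory sensory neurons enter through it from the nasal epithelium, run in bundles wrapped by olfactory ensheathing glia, and turn inward to end in the glomeruli, where they contact mitral, tufted and periglomerular cells. On its outer side the layer faces the meninges, whose fibroblasts make extracellular matrix and secrete prostaglandin D synthase. Ensheathing glia of the outer and inner parts of the layer are known to carry different surface proteins.

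Each section cut both bulbs, and the nerve layer lay in a strip between them and in patches on their lateral sides. The strip held 58.2%, 35.1% and 31.0% of the nerve layer's spots in sections 1, 2 and 3. Of the outer spots it held 57.6%, 28.2% and 19.3%, so in sections 2 and 3 the outer zone was mostly lateral. In the strip, where glomeruli lie on both sides, the outer zone was its middle, between the bulbs, and in the lateral patches it was the side away from the glomeruli. The median distance to the glomerular layer was 15.1, 18.7 and 21 positions, and the farthest spots lay at 75.2, 120.6 and 128.7 positions. The last inner spots lay at 15.13, 18.68 and 21 positions and the first outer spots at 15.23, 18.79 and 21.02, so the zones met without a gap.

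**Figure D1:**
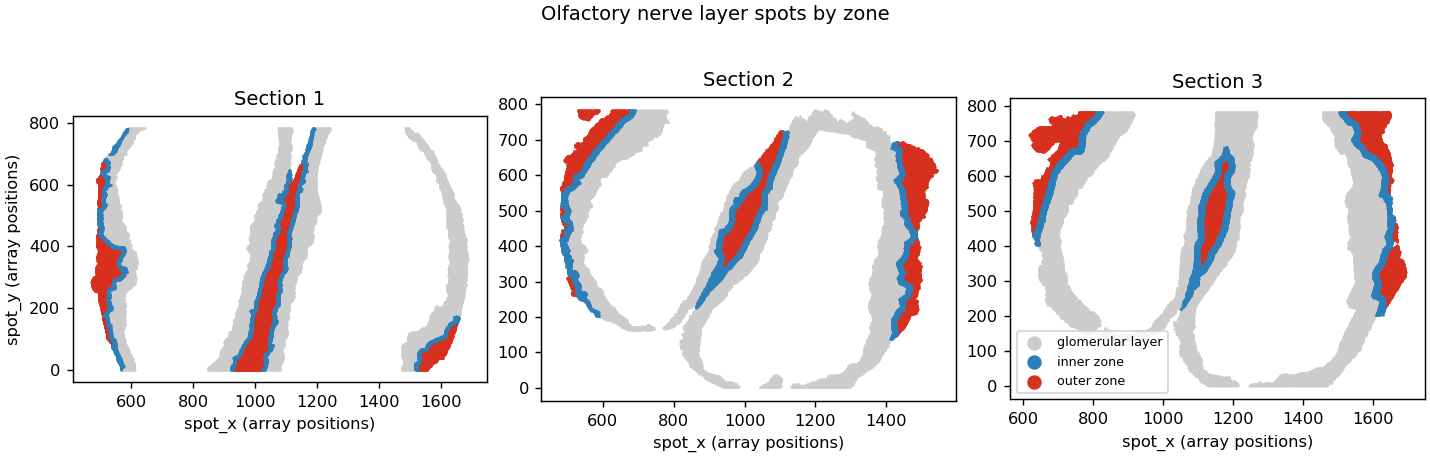
Position of nerve layer spots on the array in sections 1, 2 and 3, with both axes in array positions. Grey marks the glomerular layer, blue the inner zone and red the outer zone (1 spot in 3 is drawn). The strip between the bulbs holds 58.2% of nerve layer spots in section 1 and 31.0% in section 3.

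The zones gave 6640, 37059 and 28404 outer and 8886, 33602 and 26512 inner counts on named genes in sections 1, 2 and 3. Per 100 spots the outer zone gave 60.1 ± 38.4 counts (SD, n = 3) and the inner zone 57.4 ± 30.9. The paired difference of 2.71 ± 7.47 was smaller than its spread (two-sided exact permutation test over sections, p = 0.75, where 0.25 is the smallest p that 3 pairs allow). It was above 0 in sections 2 and 3 and below 0 in section 1, where the outer zone gave 17.1 and the inner zone 22.7 counts per 100 spots. Section 1 stood apart in content as well: transcripts of a list of mitochondria-like pseudogenes and Lars2 took 2.92% of its nerve layer counts and 8.71% and 8.23% in the others. The 2 zones of a section were therefore always compared within that section. Over spots with counts alone, the depth was 2.90 ± 0.57 counts per spot outer and 2.98 ± 0.55 inner. That paired difference, -0.076 ± 0.025, was above 0 in 0 of 3 sections (two-sided exact permutation test, p = 0.25).

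Of 346 genes with enough counts to test, 1 differed between the zones at an adjusted p under 0.05 (0.289%), and that gene was Ptgds, higher in the outer zone (edgeR quasi-likelihood test, section as a block, Benjamini-Hochberg adjustment). No gene was called lower. At an unadjusted p under 0.05 there were 14 genes, 159 fold changes were above 0 and 187 below, and the median log2 fold change was -0.04. DESeq2 called 0 genes, with 3 at an unadjusted p under 0.05. The quartiles of the 346 fold changes were -0.30 and 0.21, and their median SE was 0.41. The tested genes held 30.6% of the counts and their median SE left changes of modest size undetectable at this depth. In simulated counts of the same depth, these shares were taken over changed genes with enough counts to test. The test recovered 27.5% of them at a fold of 2 (47 of 171) and 79.5% at a fold of 4 (159 of 200). Changed genes with too few counts to test are not in these shares and could not be recovered. Over the 10 simulated sets, 6 calls fell on unchanged genes.

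**Figure D2:**
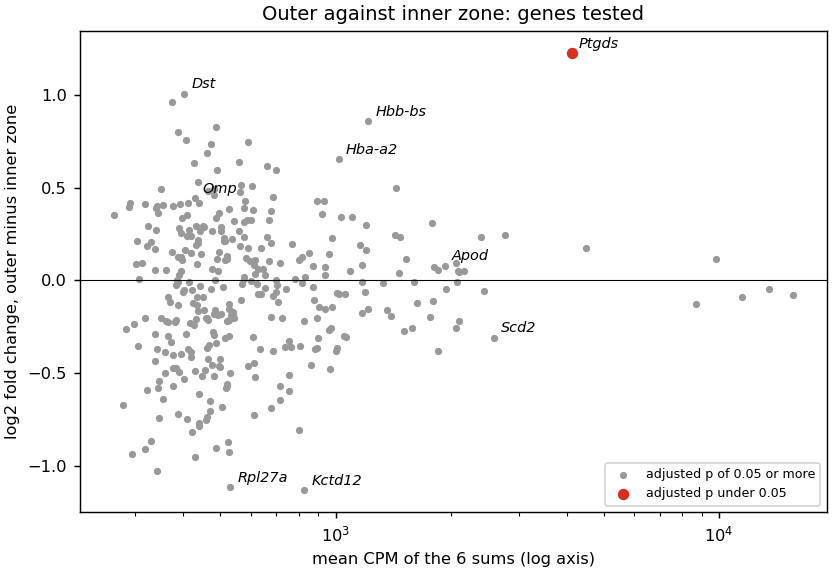
Log2 fold change, outer minus inner zone (vertical axis), against the mean CPM of the 6 sums on a log axis (horizontal) for the 346 genes tested. The red point is Ptgds at 1.23, the only gene with an adjusted p under 0.05, and grey points are the others, with Kctd12 and Rpl27a lowest at -1.13 and -1.12.

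Ptgds encodes lipocalin-type prostaglandin D synthase, which the meninges secrete in bulk. Its gene lies on chromosome 2 at 25466709 to 25470046 (mm10, GENCODE M21, minus strand). It gave 42, 180 and 172 counts in the outer zone of sections 1, 2 and 3, and 28, 73 and 58 in the inner zone. Scaled to a common total of each sum (CPM), these were 6325, 4857 and 6055 outer and 3151, 2172 and 2188 inner. All outer values lay above all inner values, as in 7 of 346 genes that were higher in the outer zone (2.02%). Its outer value was the higher one in 3 of 3 sections, as in 48 of 346 genes (13.9%).

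The mean level of Ptgds was 5746 ± 781 CPM (SD, n = 3) in the outer zone and 2504 ± 561 in the inner zone, a ratio of means of 2.29. The glomerular layer, next inward, had 1177 ± 332 CPM. The ratio within sections was 2.01 (exact 95% binomial interval 1.22 to 3.36), 2.24 (1.69 to 2.98) and 2.77 (2.04 to 3.79), which covers counting error only. The fitted log2 fold change was 1.23 (SE 0.13, 95% interval 0.95 to 1.50, adjusted p = 1.23e-06, edgeR quasi-likelihood test). With each section left out in turn the call held, while DESeq2 gave 1.21 with an adjusted p of 0.232. Without the section block edgeR gave 1.15 with an adjusted p of 0.999. Fewer cells of a type and less RNA per cell cannot be told apart in such sums.

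**Figure D3:**
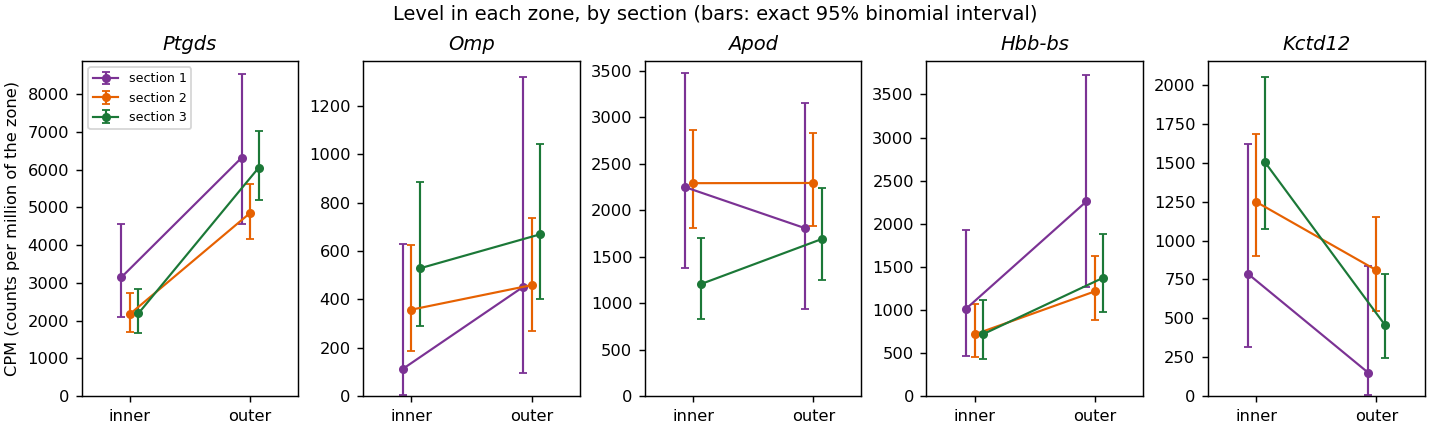
CPM of 5 genes (vertical axes, each from 0) in the inner and outer zone, 1 line per section, with exact 95% binomial intervals as bars. The outer points of Ptgds and Hbb-bs lie above the inner ones in all 3 lines, without overlap between the zones, the outer points of Kctd12 lie below in all 3 lines, and the lines of Apod go in both directions.

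The values of Ptgds were also read separately in the strip and in the lateral patches. In the strip they were 10117, 3327 and 5341 CPM in the outer zone of sections 1, 2 and 3, and 4399, 2668 and 3988 in the inner zone. In the lateral patches they were 1077, 5488 and 6183 outer and 1367, 1773 and 904.4 inner. The values from section 1 laterally rest on 3 outer and 5 inner counts. The outer zone was above the inner one in 5 of these 6 pairs, and section 1 laterally was the exception. The strip was above the lateral patches in the outer zone of section 1 and below them in that of sections 2 and 3.

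In a fit of 12 sums with a term for place, added after the data were seen, the log2 fold change of Ptgds was 1.42 smaller in the strip (difference -1.42, SE 0.31, adjusted p = 0.00110, edgeR quasi-likelihood test). That fit counts the place and zone sums of a section as separate samples, with section as a block. Its p-values pool the spread of single sums and do not measure how the difference of Ptgds varied over sections. Ptgds was the 1 gene of 346 (0.289%) called for a zone difference that varied by place, with a lateral log2 fold change of 1.99. Section 1 had the reverse order, with an outer to inner ratio of Ptgds of 2.30 in the strip and 0.79 laterally. The difference of its level between the places did not pass (log2 strip minus lateral 0.53, adjusted p = 0.584), and Kif5b, a kinesin motor of axonal transport, was the 1 gene of 346 called for place (0.84, adjusted p = 0.0224, edgeR quasi-likelihood test) and is named after its values were seen. Without section 3 the difference was -0.64 (adjusted p = 0.997), without section 2 it was -1.62 (adjusted p = 0.120), and without section 1 it was -1.78 (adjusted p = 8.35e-05). Fitted alone, the strip gave a log2 fold change of 0.59 for Ptgds (adjusted p = 0.910 over 45 genes) and the lateral patches 1.97 (adjusted p = 0.357 over 140 genes).

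**Figure D4:**
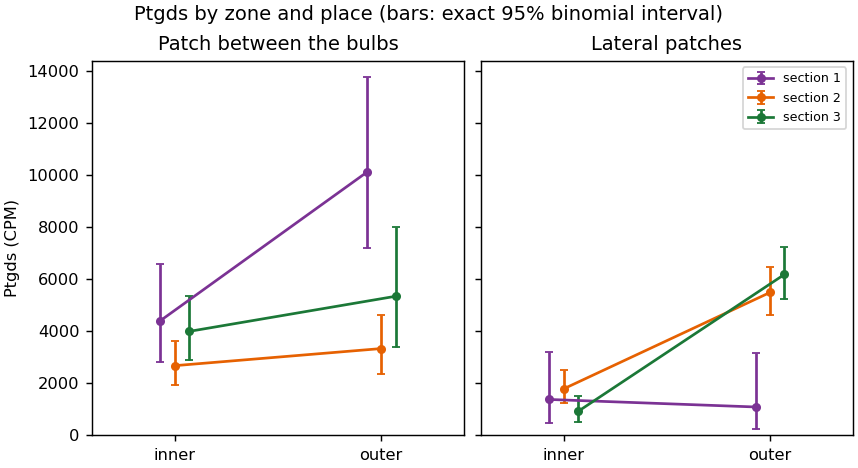
Ptgds in CPM (vertical axis, from 0) in the inner and outer zone of the strip between the bulbs (left panel) and of the lateral patches (right panel), 1 line per section, with exact 95% binomial intervals as bars. In sections 2 and 3 the lateral lines climb from 1773 to 5488 and from 904.4 to 6183, and in section 1 the strip holds the highest value, 10117.

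Division of the nerve layer into 4 bands of equal spot number, from band 1 next to the glomeruli to band 4, gave the profile of Ptgds with distance. Its mean level was 2203 ± 150 CPM in band 1, 2836 ± 1058 in band 2, 5932 ± 2704 in band 3 and 5241 ± 1761 in band 4 (SD, n = 3). The highest band was not the same in every section. In section 1 it was band 3, with 8589 CPM against 3217 in band 4 (33 and 9 counts), in section 2 it was band 4, with 6423 against 3183 in band 3, and in section 3 bands 3 and 4 gave 6023 and 6084.

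A linear trend over the bands was tested for 171 genes, and 2 were called (1.17%), namely Ptgds and Kctd12. The bands divide the same counts as the zones, so the trend is no independent support for the comparison of zones. In that fit the bands of a section count as separate samples, with section as a block. Its SEs and p-values measure scatter about 1 common slope and not how the slope varied over sections. Ptgds increased by 0.54 (SE 0.07) on the log2 scale per band (adjusted p = 1.93e-10, edgeR quasi-likelihood test). Without section 3 its trend was 0.48 with an adjusted p of 0.266, and without section 2 it was 0.45 with an adjusted p of 0.000333. Without the section block it was 0.51 with an adjusted p of 0.734.

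**Figure D5:**
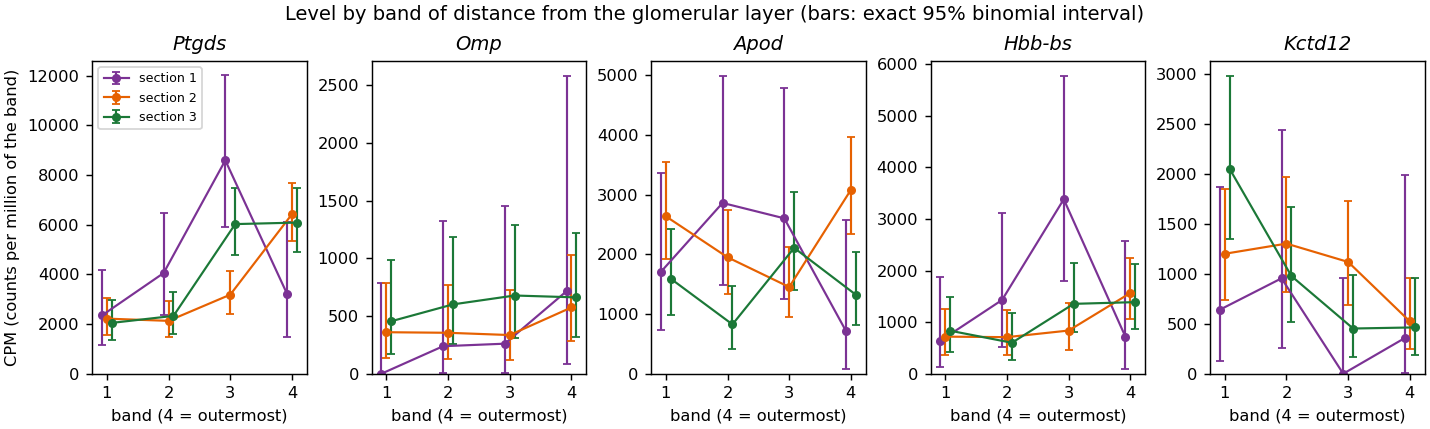
CPM of 5 genes (vertical axes, each from 0) in 4 bands of distance from the glomerular layer (horizontal axis, band 4 outermost), 1 line per section, with exact 95% binomial intervals as bars. Ptgds in section 1 peaks in band 3 at 8589, and Kctd12 declines on average from 1295 in band 1 to 447.5 in band 4.

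Ptgds was one of 23 genes of a list of meningeal fibroblast and matrix genes, of which 22 had a count and 2 could be tested. The summed level of the other 22 members was 2259, 3319 and 2957 CPM in the outer zone and 2251, 2262 and 1924 in the inner zone. These sums were within 10 CPM of each other in section 1 and apart in sections 2 and 3, with a ratio of means of 1.33. The other tested member was Nnat, a small membrane proteolipid, at 662.9 ± 93.3 CPM outer and 641.8 ± 66.0 inner. Dcn, the matrix proteoglycan decorin, gave 0, 17 and 13 outer and 0, 9 and 6 inner counts. Igf2, a growth factor made by the meninges, gave 1, 14 and 9 outer and 2, 4 and 5 inner counts. Both were too low to test. Slc47a1, a transporter used as a marker of meningeal fibroblasts, had no count.

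Haemoglobin transcripts, which mark red blood cells, came next among the higher values by p. Hbb-bs, an adult beta-globin gene on chromosome 7, gave 15, 45 and 39 outer and 9, 24 and 19 inner counts. Its mean was 1615 ± 563 CPM outer and 814.6 ± 172 inner, and the zones did not overlap, as in 7 of 346 genes that were higher in the outer zone (2.02%). The log2 fold change was 0.86 (SE 0.23), with an adjusted p of 0.115 (edgeR quasi-likelihood test), so it did not pass. Under scaling by library sizes alone the adjusted p was 0.0409.

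Hba-a2, an alpha-globin gene, had 14, 27 and 29 outer and 10, 15 and 18 inner counts, with a log2 fold change of 0.65 and an adjusted p of 0.896. Globin genes have near-identical copies, between which the authors' counting could split reads, so values of single copies are uncertain. Summed over 5 blood genes, the level was 3574 ± 1609 CPM outer and 1959 ± 449 inner, higher in the outer zone in 3 of 3 sections. In section 1 Hbb-bs, like Ptgds, had its highest value in band 3 (3384 CPM, against 714.8 in band 4). By place, Hbb-bs was at 3891 CPM outside and 1147 inside in the strip of section 1 (15 and 6 counts). Laterally it was at 0, 1486 and 1535 CPM outside in sections 1, 2 and 3, and 820.3, 483.6 and 646 inside. The lateral values of section 1 rest on 0 outer and 3 inner counts. In the strip of sections 2 and 3 Hbb-bs was at 554.5 and 464.5 CPM outside (6 and 2 counts) and 1001 and 815.8 inside (15 and 9 counts). Hba-a2 was there at 369.7 and 928.9 CPM outside (4 and 4 counts) and 400.2 and 181.3 inside (6 and 2 counts). The 2 globin genes thus went opposite ways in the strip of section 3. The part of blood or vessels in the difference of Ptgds was not tested. The defining endothelial gene Cldn5 had 0, 7 and 6 outer and 0, 1 and 4 inner counts, and the summed list of 17 endothelial and mural genes was at 1696 ± 154 CPM outer and 1964 ± 711 inner.

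Kctd12, an auxiliary subunit of GABA-B receptors, gave the smallest p among the genes with lower values in the outer zone. Its gene lies on chromosome 14 at 102976581 to 102982637. It had 1, 30 and 13 outer and 7, 42 and 40 inner counts. In CPM these were 151, 809.5 and 458 outer and 788, 1250 and 1509 inner. Each section's outer value was the lower one, but the zones overlapped, since the outer zone of section 2 exceeded the inner zone of section 1.

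The log2 fold change of Kctd12 was -1.13 (SE 0.28, 95% interval -1.71 to -0.57), with an adjusted p of 0.0701 (edgeR quasi-likelihood test), so the comparison of zones did not call it. It fell by 0.53 (SE 0.12) on the log2 scale per band in the trend fit, which called it (adjusted p = 0.00178 over 171 genes). That fit used the same counts as the zones and is no independent support. It takes the bands of a section as separate samples, so its p-value does not measure how the slope varied over sections. Without section 3 the trend was -0.38 (adjusted p = 0.614), and without section 2 it was not tested, having too few counts. Its means were 1295 ± 708, 1077 ± 194, 522.9 ± 562 and 447.5 ± 83.5 CPM from band 1 to band 4 (SD, n = 3). The glomerular layer was at 357.8 ± 241 CPM, so the inner zone, with 1182 ± 365, was above both of its neighbours on average. Across the 9 annotated regions the nerve layer had the highest level of Kctd12 in 3 of 3 sections (833.1 ± 277 CPM).

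Kctd12 also led a list of 10 periglomerular interneuron genes, with 44 of its 88 outer and 89 of its 155 inner counts. Since Kctd12 itself was higher in the nerve layer than in the glomerular layer, its counts cannot be assigned to periglomerular cells. The summed list was at 1028 ± 491 CPM outer and 2387 ± 380 inner, lower in the outer zone in 3 of 3 sections. In the glomerular layer the sum was 2010 ± 460 CPM. None of the 2 tested members of the list passed. Calb2, the calcium-binding protein calretinin of a periglomerular subtype, gave 1, 10 and 11 outer and 10, 16 and 9 inner counts. Th, tyrosine hydroxylase of dopaminergic periglomerular cells, gave 2, 4 and 2 outer and 6, 6 and 6 inner counts. Nxph1, the secreted neurexin ligand neurexophilin, gave 0, 12 and 0 outer and 1, 4 and 3 inner counts, more outside in section 2 alone. Ddc, Slc6a3, Calb1 and Lhx1 had no count in either zone. Spots within 5 positions of another layer made up 36.2%, 30.3% and 27.3% of the inner zone and 0%, 1.32% and 0% of the outer zone.

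Olfactory sensory axons were described by 20 genes, of which 3 could be tested and 0 passed. Omp, the marker protein of mature olfactory sensory neurons, gave 3, 17 and 19 outer and 1, 12 and 14 inner counts. Its mean was 526.5 ± 123 CPM outer and 332.6 ± 209 inner, with a log2 fold change of 0.44 (95% interval -0.40 to 1.29, adjusted p = 0.907, edgeR quasi-likelihood test). The zones overlapped, although each section's outer value was the higher one. Of the 9 regions the nerve layer had the highest Omp in 3 of 3 sections, at 423 ± 172 CPM, against 156.4 ± 65.0 in the glomerular layer, which was the check of the layer's label.

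S100a5, a calcium-binding protein of sensory neurons, was at 573.4 ± 205 CPM outer and 704.8 ± 267 inner. Gng13, a G protein gamma subunit of olfactory transduction, was at 331.7 ± 107 and 341.7 ± 247. The values of both genes overlapped between zones. Summed over the 20 genes, the level was 2106 ± 267 CPM outer and 1954 ± 75.7 inner, with the outer zone above in 2 of 3 sections.

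Ensheathing glia genes showed no called difference either: 5 of 16 could be tested, 4 with a fold change above 0 and 1 below, with a median of 0.08. Apod, the lipid-binding apolipoprotein D, gave 12, 85 and 48 outer and 20, 77 and 32 inner counts. Its means were 1930.3 ± 320 CPM outer and 1916 ± 615 inner, and its direction differed among sections. The log2 fold change was 0.08 (95% interval -0.30 to 0.46, adjusted p = 0.952, edgeR quasi-likelihood test), and its sign flipped without section 3, without the section block, in the outermost against innermost 3-way split and in the strip alone.

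Fabp7, the brain fatty acid-binding protein of these glia, was at 1847 ± 829 CPM outer and 1840 ± 552 inner, with a log2 fold change of 0.06 (95% interval -0.30 to 0.41). The intervals of Apod and Fabp7 were narrower than that of Omp. Vtn, the matrix protein vitronectin, was at 594.2 ± 282 and 279.6 ± 147, with overlapping zones and an interval of -0.44 to 1.51. The summed list was at 7136 ± 1390 CPM outer and 7097 ± 1212 inner.

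Markers of outer and inner ensheathing glia were mostly too low to compare. Ngfr, the p75 neurotrophin receptor of outer ensheathing glia, had no count in either zone, nor did Gldn, Prss56 and Fzd1. Npy, a neuropeptide known from inner ensheathing glia and read here although the naming rule did not take it, gave 3, 9 and 4 outer and 4, 10 and 7 inner counts. These counts were too few to test.

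Fatty acid genes, which include 2 desaturases abundant in the nerve layer, had 3 of 15 members tested and none passed. Scd2, a stearoyl-CoA desaturase, was at 2409.6, 2239.7 and 2218 CPM in the outer zone and 3376, 2708 and 2565 in the inner zone. Its zones did not overlap, as in 5 of 346 genes that were lower outside (1.45%), and the log2 fold change was -0.31 (95% interval -0.63 to 0.01, adjusted p = 0.896, edgeR quasi-likelihood test). Scd1, a second such enzyme, was at 1219 ± 676 and 1121 ± 971 CPM. Fasn, fatty acid synthase, was at 340.4 ± 174 and 399.6 ± 56.0.

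The insulin-like growth factor system had 1 of 10 members tested, Igfbp5, a binding protein, at 955.1 ± 828 CPM outer and 884.8 ± 305 inner. Igf1 gave 0, 2 and 4 outer and 0, 7 and 7 inner counts, opposite in order to those of Igf2 in sections 2 and 3, and neither was tested. Among 23 antioxidant genes 3 were tested, with the peroxiredoxins Prdx1 at 579.9 ± 154 and 572.2 ± 187 CPM and Prdx6 at 384.9 ± 58.0 and 449.5 ± 112. Neither of these families gave a called gene.

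Adhesion and growth genes of axons gave no called gene. Ncam1, the neural cell adhesion molecule, gave 1, 25 and 16 outer and 2, 35 and 27 inner counts, with a log2 fold change of -0.72 (SE 0.29, adjusted p = 0.896, edgeR quasi-likelihood test). It was lower outside in 3 of 3 sections, as were 43 of 346 genes (12.4%), while 48 were higher in 3 of 3 (13.9%). Cntn1, the adhesion protein contactin, was at 284.7 ± 247 CPM outer and 241.9 ± 138 inner. Of 21 axon cytoskeleton and growth genes 7 were tested, 5 above 0 and 2 below. Tmsb4x, an actin-binding thymosin, was at 1563 ± 221 and 1363 ± 509, Map1b, a microtubule protein, at 1060.2 ± 673 and 1284 ± 430, and Marcks, a membrane-bound actin regulator, at 913.7 ± 419 and 827.2 ± 534.

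Astrocyte genes summed to 18957 ± 1274 CPM in the outer and 18932 ± 1860 in the inner zone over 18 genes. Of their 11 tested members 3 were above 0, 8 were below, and none passed. Apoe, the main brain apolipoprotein, was at 4638 ± 966 CPM outer and 4373 ± 1770 inner. Cst3, the protease inhibitor cystatin C, was at 2931 ± 1640 and 2585 ± 1860, higher outside in 3 of 3 sections. Glul, glutamine synthetase, was at 1845 ± 832 and 2340.1 ± 620, and Sparcl1, a matricellular protein, at 1914 ± 486 and 1973 ± 442.

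Transcripts of synaptic genes and of genes listed for bulb neurons were present in both zones, and the cells they came from were not tested. Snap25, a synaptic membrane fusion protein, was at 1681 ± 631 CPM outer and 1525 ± 309 inner, and Vamp2, its vesicle partner, at 880.9 ± 431 and 1067 ± 635. Syt1, the vesicle calcium sensor, gave 1, 14 and 11 outer and 1, 24 and 22 inner counts, with a log2 fold change of -0.95 and an adjusted p of 0.896 (edgeR quasi-likelihood test). Of 14 synaptic vesicle genes 7 were tested, 2 above 0 and 5 below. Gad1, which makes GABA, was at 1465 ± 557 and 1697 ± 594 CPM, and Pcp4, a calmodulin-binding peptide, at 689.8 ± 55.7 and 685 ± 577. Pcp4 was at 753, 647.6 and 668.9 CPM outer and 1350.4, 327.4 and 377.2 inner, so section 1 went against the other two, and its log2 fold change was 0.45 (95% interval -0.36 to 1.27). Nrsn1, of the list of mitral and tufted cell genes, was at 557.5 ± 119 and 481.4 ± 160.

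Mbp, myelin basic protein, was at 697.3 ± 456 CPM outer and 1030.5 ± 874 inner, lower outside in 3 of 3 sections without passing. Bsg, basigin, which is abundant in brain endothelium, was at 644.6 ± 239 and 827.4 ± 360. Of 16 microglia and border macrophage genes none had enough counts to test, and their sum was 790 ± 360 CPM outer and 579.7 ± 376 inner. The 11 immediate early genes, which neurons induce on activity, were not testable either, with 34 outer and 51 inner counts in all.

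Genes that every cell uses marked the spread of the measurement. Of 86 cytosolic ribosomal protein genes 27 were tested, 15 above 0 and 12 below, with a median log2 fold change of 0.03. Rplp1 was at 1003 ± 305 CPM outer and 872.1 ± 125 inner, and Rps24 at 842.7 ± 233 and 554.3 ± 225, higher outside in 3 of 3 sections. Rpl27a gave 3, 10 and 7 outer and 10, 15 and 17 inner counts, a log2 fold change of -1.12 (SE 0.42, adjusted p = 0.896, edgeR quasi-likelihood test). Ribosomal genes have many processed copies, so single members are uncertain. The most abundant features, Lars2 and the pseudogene Gm10925, were at 13281 ± 11570.3 and 15409 ± 4910.2 CPM outer and at 13665 ± 11819 and 15699 ± 5897 inner, with log2 fold changes of -0.05 and -0.08. Lars2 was abundant in sections 2 and 3 alone, with 785 and 530 outer counts, and had 0 outer and 2 inner counts in section 1.

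The remaining genes that the naming rule took did not pass. Dst, the cytoskeletal linker dystonin, gave 1, 37 and 14 outer and 0, 12 and 11 inner counts, with a log2 fold change of 1.01 (SE 0.43). Ywhaq, a signalling adaptor of the 14-3-3 family, gave 4, 13 and 14 outer and 4, 8 and 3 inner counts, with 0.96 (SE 0.50). Eif1, a translation initiation factor, gave 8, 11 and 9 outer and 17, 15 and 17 inner counts, with -0.81 (SE 0.37). Each of the 3 had an adjusted p of 0.896 (edgeR quasi-likelihood test), the same as Ncam1, and overlapping zones. Over all lists, 93 of 367 genes were tested, 45 with a fold change above 0, and Ptgds alone passed.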

How the data were processed

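The authors deposited, for each of the 3 sections, whole-number counts per spot and gene and a table of spot positions and regions. Per the submitters' processing notes the build was mm10; the aligner, counter and use of molecular identifiers are not given in the sources used here, and gene locations come from GENCODE M21. Pixel positions tied each count entry to its region, with 100% of entries matched. By spot name 100%, 97.9% and 97.9% of nerve layer entries fell in that layer, and joining that way was tried too. Entries with no gene symbol (3, 59 and 50, or 0.0193%, 0.0834% and 0.0910% of nerve layer counts) were left out. Spot names, which give array positions and do not identify cells, were shared by between 19.1% and 21.8% of spots with counts of 2 sections. The sections held 344372, 650890 and 505710 counts, and the sums of section 1 were the smallest.

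Counts were summed per section and zone and tested with edgeR 4.0.16 (quasi-likelihood, R 4.3.3), with zone and section in the model, TMM scaling, a minimum count of 10 in filterByExpr and Benjamini-Hochberg adjustment (threshold 0.05). Of 13614 genes with a count, 346 were tested. The 3 sections leave 2 residual degrees of freedom, to which 21.1 come from the spread shared by all genes. The same test with band number as a numeric term gave the trends. Alternatives used RLE or library-size scaling, no filter, no block, DESeq2 1.42.0, each section left out, other distances and other joins. The strip and lateral patches, the cap on distance and the fit with place were chosen after seeing the data. The sums of a section are paired by tissue and array: their deviations from the zone means correlated at 0.707, 0.627 and 0.455 within sections 1, 2 and 3, and between zones of different sections at -0.68 to 0.52, with positive values between sections 2 and 3. Deviations from a mean over 3 sections sum to 0, which by itself lowers correlations between sections. The outer zone of section 2 and the inner zone of section 3 correlated at 0.523, above the 0.455 within section 3. CPM means, SDs and exact binomial (Clopper-Pearson) intervals were computed in Python 3.11.15 with scipy 1.17.1. The simulation used 10 sets of counts.

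The members, the 20 gene lists and the tests were chosen with earlier results of these data known. Named genes were Ptgds, Omp and Apod, then the 10 largest called changes in each direction with 1 sign in 3 of 3 sections and at least 30 counts in the higher zone. Where under 4 were called in a direction, the 4 with the smallest p under those conditions were added, and of each list 2 to 4 members with the most counts. Syt1, Dcn, Igf1, Cldn5, Npy, and members without a count are given as well, some of them chosen after their values were seen. A gene taken by the rule is not reported here.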

Additional observations from a re-analysis of the deposited data

Results flagged for a closer look

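In the fit of all sections the outer against inner difference of Ptgds differed by place, but not in the same direction in every section. Its log2 fold change in the strip between the bulbs minus that in the lateral patches was -1.42 (adjusted p = 0.00110 by edgeR's quasi-likelihood test over 346 genes). Sums of the same section count as separate samples in that fit, so this p does not measure how the difference varied over sections. The outer to inner ratio was 2.30, 1.25 and 1.34 in the strip of sections 1, 2 and 3, and 0.79, 3.10 and 6.84 laterally. The strip thus had the larger ratio in section 1 and the smaller one in sections 2 and 3. The outer zone was above the inner one in 3 of 3 sections in the strip and in 2 of 3 laterally, where section 1 had 3 outer and 5 inner counts. With section and place together as the block the difference was -1.43, and with distances beyond those of the strip left out it was -1.35 (adjusted p = 0.0135). It did not pass without section 2 or without section 3 (adjusted p = 0.120 and 0.997).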

How the results depend on the processing

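Called genes in the comparison of zones numbered 1 (Ptgds) by the chosen test and also with RLE scaling, no filter on low counts, the median taken over spots with counts, border spots left out, distance in pixels, the glomerular layer or all other regions added, and library totals over all genes. The count was 3 with library sizes as the only scaling and 3 without spots beyond the largest distance of section 1, which added Hbb-bs (adjusted p = 0.0409 and 0.0284) and Kctd12. It was 2 (Ptgds and Kctd12) for the outermost against the innermost 3-way split, for distance to any other region, for the join by spot name and with place in the tissue as a term. It was 0 in the strip alone, laterally alone (where fewer genes were tested), with DESeq2 and without the replicate block, where 2 genes had an unadjusted p under 0.05. Leaving out each section in turn gave 1 to 2 called genes, with Kctd12 added without section 2. In the trend, 2 genes were called by the chosen test, 0 without the replicate block and 0 to 2 with each section left out: 1 without section 2 (Ptgds) and 0 without section 3. With no filter the trend called Ptgds and Rp9 and did not call Kctd12. The log2 fold change of Ptgds stayed above 0 in the 21 alternatives, from 0.59 to 1.97, and passed in 17. Kctd12 stayed below 0 in the 20 that tested it and passed in 7. Apod changed sign without the replicate block (-0.011), without section 3 (-0.059; the sections left out in turn gave -0.059 to 0.21), in the 3-way split (-0.0050) and in the strip alone (-0.24), none of which passed; the cause was not tested. The difference in counts per 100 spots was -0.32 without section 2. Taken as counts per spot with counts, the difference was -0.076, opposite in sign to the 2.71 per 100 spots. Section 1, with 6640 outer counts, limits what could be seen in 3 of 3 sections.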
